A study of Mus musculus with 36 samples.

Results

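The nuclear subunits of oxidative phosphorylation were followed by RNA sequencing in mouse motor neurons kept in medium from astrocytes of 3 genotypes. Genes were taken by symbol: those that begin with Ndufa, Ndufb, Ndufc, Ndufs or Ndufv and end in a number, the 4 Sdh genes, and those that begin with Uqcr, with Cox and a number from 4 to 8, or with Atp5. This gave 84 of the 21761 genes listed. Of these, 80 encode structural subunits: 35 of complex I, 4 of complex II, 8 of complex III, 18 of complex IV (with Ndufa4, now assigned there) and 15 of complex V. The other 4 share only the name or an accessory role and are described apart: Cox4nb, Cox7a2l, Atp5s and Atp5sl. Reads were enough to test 81 of the 84, and the remaining 3 were Cox6a2, Cox8b and Cox8c.

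The neurons were made from embryonic stem cells of transgenic Hlxb9-GFP1Tmj mice, whose reporter (eGFP, or eGFP and CD2) is under control of the promoter of the motor neuron gene HB9. Cells were sorted on magnetic beads by their CD2 before plating. Media came from astrocytes of newborn pups that were non-transgenic (NTg), over-expressed SOD1 with the G93A mutation (mSOD1), which causes a familial form of amyotrophic lateral sclerosis, or over-expressed wild-type SOD1 (wtSOD1). The labels name spinal cord and cortex as origins of the astrocytes without assigning either to a library. Every medium, NTg included, carried added D-glucose, penicillin/streptomycin, GDNF, BDNF and CNTF and had been filtered. RNA was taken after 1 or 3 days, which gave 6 groups of 6 libraries, numbered by experiments 1 to 6. Cells were chosen by HB9 activity before plating, and the labels describe no further selection at 1 or 3 days.

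Oxidative phosphorylation passes electrons from NADH through complex I, or from succinate through complex II, to complex III, cytochrome c and complex IV, and complex V uses the resulting proton gradient to make ATP. Each complex except complex II combines subunits encoded in the nucleus with subunits encoded in mitochondrial DNA. Neurons depend heavily on this pathway, and several subunits of complexes IV and V exist as alternative isoforms used in different tissues. The nuclear factors NRF1, GABP (an ETS factor), YY1 and SP1 are known to act on promoters of such genes.

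Promoters are shown for the members on which the results turn. Uqcrh and Cox6b2 rose by the most among members above 2 CPM, Cox6b1 is the paralog of Cox6b2, Ndufa8 is among the complex I genes that fell most, and Sdha is the largest subunit of complex II. Each sequence holds the 250 bases before the start in RefSeq (GRCm38.p6), 5′ to 3′ on the gene's strand, with matches to the motifs below in capitals. The Uqcrh promoter is chr4:116075071-116075320, minus strand.
Uqcrh: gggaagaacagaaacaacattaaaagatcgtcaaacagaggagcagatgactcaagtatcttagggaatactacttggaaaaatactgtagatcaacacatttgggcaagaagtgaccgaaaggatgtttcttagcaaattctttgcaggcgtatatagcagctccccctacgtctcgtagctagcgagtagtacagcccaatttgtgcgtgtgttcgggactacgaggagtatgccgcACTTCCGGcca
Cox6b2 (chr7:4753095-4753344, minus strand) and Cox6b1 (chr7:30626115-30626364, minus strand) follow.
Cox6b2: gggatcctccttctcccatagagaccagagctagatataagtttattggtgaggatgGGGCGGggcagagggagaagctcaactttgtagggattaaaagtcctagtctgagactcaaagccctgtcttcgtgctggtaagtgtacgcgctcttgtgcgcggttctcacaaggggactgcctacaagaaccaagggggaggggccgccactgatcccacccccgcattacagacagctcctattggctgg
Cox6b1: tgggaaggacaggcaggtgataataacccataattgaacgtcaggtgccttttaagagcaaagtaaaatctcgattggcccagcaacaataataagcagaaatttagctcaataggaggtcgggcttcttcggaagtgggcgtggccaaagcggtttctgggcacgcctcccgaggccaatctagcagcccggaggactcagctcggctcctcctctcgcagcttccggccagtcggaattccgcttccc
Ndufa8 (chr2:36049339-36049588, minus strand) and Sdha (chr13:74350241-74350490, minus strand) hold matches to the looser NRF1 motif.
Ndufa8: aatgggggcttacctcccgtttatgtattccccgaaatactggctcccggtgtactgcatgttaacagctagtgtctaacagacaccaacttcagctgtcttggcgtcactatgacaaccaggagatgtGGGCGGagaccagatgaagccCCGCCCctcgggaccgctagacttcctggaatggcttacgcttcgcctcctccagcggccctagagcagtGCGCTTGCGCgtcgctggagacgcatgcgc
Sdha: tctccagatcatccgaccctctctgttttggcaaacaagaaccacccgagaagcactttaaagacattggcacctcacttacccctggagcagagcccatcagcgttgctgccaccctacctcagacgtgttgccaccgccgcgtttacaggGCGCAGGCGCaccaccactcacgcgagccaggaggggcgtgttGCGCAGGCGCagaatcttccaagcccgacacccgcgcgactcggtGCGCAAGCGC
The isoform pair differed in these letters: the Cox6b2 window held an SP match and the Cox6b1 window shown held none of the motifs searched. Uqcrh held an ETS match close to its start.

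Motifs were searched on both strands of the 300 bases from 250 before to 50 after the start, for 69 members with a RefSeq entry and for all 27025 genes with one. The NRF1 motif (GCGC, then AT, then GCGC) was found in 7.25% of the members (Atp5g2, Atp5k, Cox6a1, Ndufa11 and Uqcrc1) and in 1.07% of all genes. The looser form, with any bases in place of AT, contains the stricter one and was found in 26.1% against 7.0%. It was present in 8 of 31 complex I promoters and 6 of 14 of complex V, but in 1 of 13 of complex IV. The YY1 motif AAGATGGC was found in 15.9% of members and 3.19% of all genes. It was present in 7 of 31 complex I promoters (22.6%) and 3 of 14 of complex V (21.4%), but in 0 of 13 of complex IV. Those of complex I were Ndufs4, Ndufs7, Ndufb8 and Ndufc1, called lower on day 3 in at least 1 medium, and Ndufa3, Ndufa9 and Ndufs6, called in none. Of all 35 complex I subunits, 18 were called lower in at least 1 medium. The ETS motif CCGGAAGT was found in 7.25% against 4.31%, in Uqcrh, Uqcr11, Ndufs3, Cox8a and Atp5h, and the SP motif GGGCGG in 40.6% against 38.2%. These are matches of letters and were not tested as sites.

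Libraries held 4.39 to 88.9 M reads assigned to genes, and 16462 to 18503 genes had a read. NTg replicate 6 of day 1, the smallest, and wtSOD1 replicate 4 of day 1, the largest, stood apart from their groups, so counts are also given without this pair. No pair of libraries within a group held identical values, and counts of every pair differed by more than sampling noise. Whether libraries of a group came from separate differentiations is not stated beyond the experiment number, so p-values measure the spread between these libraries.

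How abundant were the subunits? Levels are CPM, the reads of a gene scaled to a common library total after TMM normalization. The subunits of the 5 complexes together took 0.575 to 0.613% of reads on average in each group. Complex V held the largest part, with a median of 2480 CPM in NTg medium on day 1, against 1578 CPM for complex I, 864 CPM for complex IV, 595 CPM for complex III and 434 CPM for complex II. To compare genes, levels were divided by the median length of each gene's protein-coding transcripts, as the mean of the 6 groups. Atp5b, the catalytic beta subunit of ATP synthase, was highest of all at 437 CPM per kb, and Atp5a1, the alpha subunit, followed at 269 CPM per kb. Uqcrh, the acidic hinge subunit of complex III that lies beside cytochrome c1, came next at 253 CPM per kb. Cox6b1 led complex IV at 219 CPM per kb, Ndufa6 led complex I at 103 CPM per kb and Sdhb, the iron-sulphur subunit of complex II, led there at 84.0 CPM per kb. The median subunit of complex I, 44.1 CPM per kb, lay under those of complex II (63.6), complex III (79.4), complex IV (59.8) and complex V (92.8), all in CPM per kb.

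**Figure D1:**
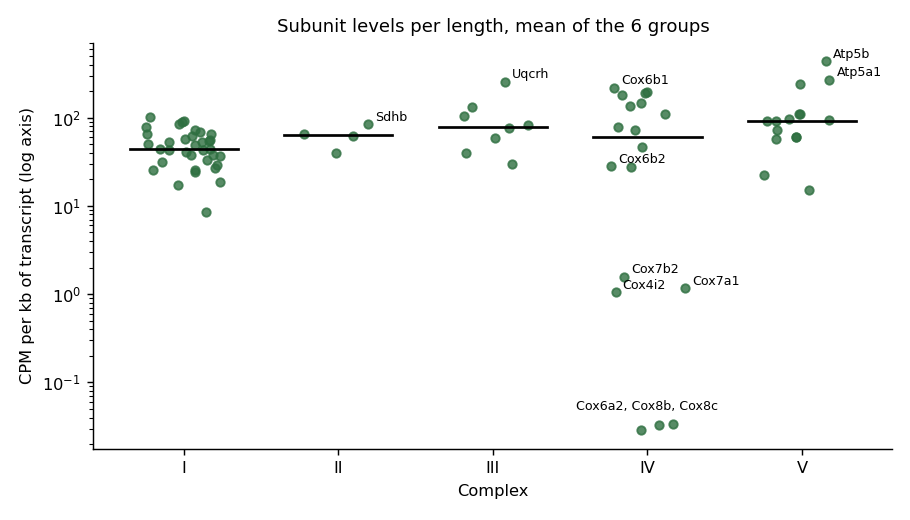
Level of each of the 80 structural subunits per kb of transcript (log axis, CPM per kb, mean of the 6 groups) by complex; black lines are medians over the subunits. Atp5b and Atp5a1 stand at the top, and 6 isoforms of complex IV lie under 2 CPM per kb.

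Complex IV spread furthest, because isoforms known from other tissues were nearly silent. Cox6a2 and Cox8b, the heart and skeletal muscle isoforms, had 9 and 7 reads over all 36 libraries, and Cox8c, a testis isoform, had 9. Cox7a1, another muscle isoform, averaged 0.513 CPM, Cox4i2, an isoform linked to oxygen sensing, 0.768 CPM and Cox7b2 0.848 CPM. Their general counterparts were far more abundant, at 147 CPM for Cox4i1, 103 CPM for Cox6a1, 73.0 CPM for Cox7a2 and 79.7 CPM for Cox8a. Among the 3 genes that encode the same mature c-ring subunit of ATP synthase, Atp5g3 was highest at 242.5 CPM per kb. Atp5g2 was at 92.8 and Atp5g1 at 15.0 CPM per kb. Before division by length the 3 were at 174, 54.4 and 40.2 CPM. Most of the gap between Atp5g2 and Atp5g1 thus comes from the median transcript lengths used, 586 and 2675.5 bases. The value of Atp5g2 is uncertain, since 87.4% of its 50-base words also occur in other genes.

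What changed from day 1 to day 3? A smaller share of members than of all genes was called, and their differences were smaller. In NTg medium, day 3 was higher for 13 and lower for 21 of 81 members (edgeR quasi-likelihood test, Benjamini-Hochberg over 15204 genes, threshold 0.05). This was 42.0% of members, beside 61.5% of all genes tested (30.8% higher and 30.8% lower). In mSOD1 medium 7 were higher and 27 lower, again 42.0%, beside 56.5% of all genes (28.4% higher and 28% lower). In wtSOD1 medium 9 were higher and 26 lower, 43.2%, beside 61.8% (31.1% higher and 30.7% lower). The median size of the log2 difference was 0.12, 0.12 and 0.13 for members in NTg, mSOD1 and wtSOD1 medium, and 0.28, 0.25 and 0.28 for all genes. In all 3 media 6 members (7.41%) were called higher and 18 (22.2%) lower, beside 23.2% and 22.1% of all genes. Another 37 of 81 (45.7%) were called in none, beside 24.8% of all genes, and no member was called higher in one medium and lower in another.

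Cell type markers moved with the days. All 8 motor neuron markers were lower on day 3 in each medium, and their summed level had medians of 1552 to 1596 CPM on day 1 and 772 to 980 CPM on day 3. The 7 general neuron markers matched were all lower too, with medians of 7989 to 8054 CPM and then 4890 to 5839 CPM. Of 6 astrocyte markers 5 were higher in each medium (summed medians of 106 to 122 CPM, then 373 to 414 CPM), and S100b was not called. Gfap, the defining one, had a median of 0 in all 3 groups of day 1. It stayed scarce on day 3, with medians of 0.490, 0.583 and 0.585 CPM in NTg, mSOD1 and wtSOD1 medium. Most of the sum lay in Slc1a3, Aldh1l1 and Gja1 (medians of 193, 127 and 90.3 CPM in NTg medium on day 3). All 6 mesenchymal markers tested were higher (summed medians of 509 to 627, then 1223 to 1486 CPM). Most of that sum over 7 genes, the untested Lum included, was Acta2 (medians of 437 to 551, then 1047 to 1244 CPM). Higher too were 8, 6 and 8 of 8 genes of dividing cells in NTg, mSOD1 and wtSOD1 medium (599 to 612, then 953 to 1182 CPM). Sums of 6 microglial genes reached at most 4.22 CPM in 5 groups and 36.3 CPM in NTg medium on day 1 (median 2.87 CPM), with Tyrobp at a median of 0 in every group. Sums of 6 genes of the oligodendrocyte lineage had medians of 43.8 to 48.9 CPM on day 1 and 35.6 to 40.3 CPM on day 3, with a highest value of 189.7 CPM in NTg medium on day 1. The part of these shifts in the day differences of the subunits was not tested, and in bulk RNA fewer cells of a type and less RNA per cell cannot be told apart.

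The split between directions depended on the scaling. With total counts in place of TMM factors, the median of all genes moved up by less than 0.1 on the log2 scale, and the members became 13 higher and 10 lower in NTg, 9 and 17 in mSOD1 and 15 and 10 in wtSOD1 medium. With upper-quartile scaling they were 13 and 15, 7 and 23, and 10 and 18. Small declines are therefore given relative to the bulk of genes. Libraries of the 2 days did not overlap for 13 of 81 members in NTg medium, beside 38.4% of all genes, for 13 in mSOD1 medium, beside 32%, and for 7 in wtSOD1 medium, beside 38.3%.

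**Figure D2:**
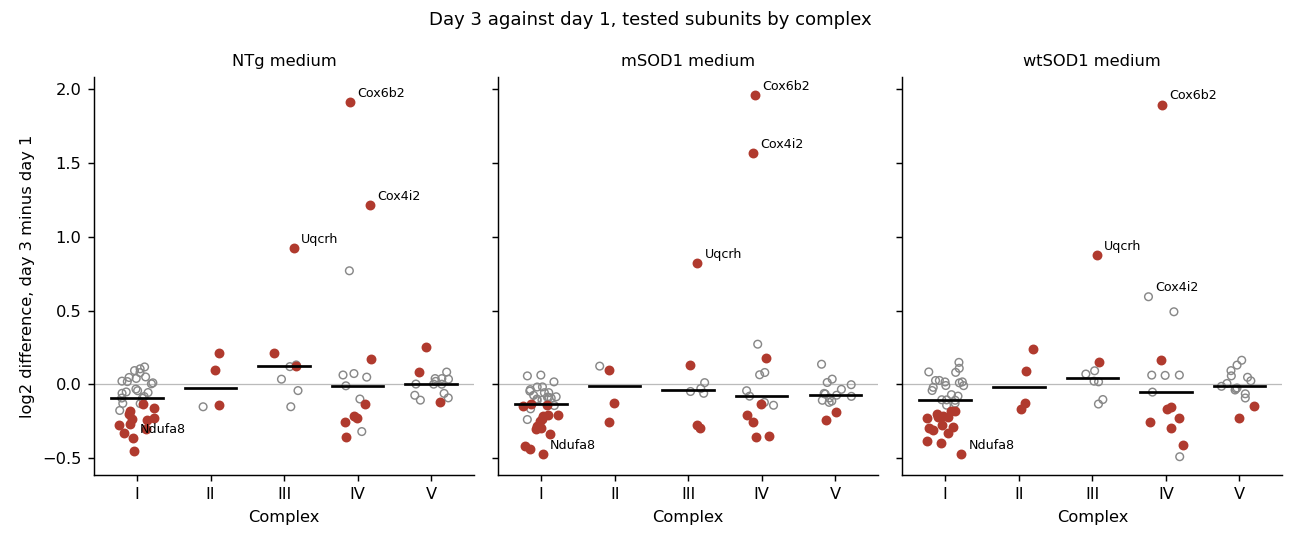
Log2 difference of day 3 minus day 1 for each of the 77 tested structural subunits, by complex, in the 3 media; filled red points passed the test, open grey points did not, and black lines are medians. No filled point of complex I lies above 0, while Uqcrh stands apart in complex III, and Cox6b2 and the scarce Cox4i2 are the highest points of complex IV in NTg and mSOD1 medium.

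The calls in complex I were all lower. None of its 35 subunits was called higher on day 3, beside 30.8%, 28.4% and 31.1% of all genes in NTg, mSOD1 and wtSOD1 medium. Called lower were 13 (37.1%), 15 (42.9%) and 15 (42.9%), beside 30.8%, 28% and 30.7% of all genes. Counting both directions, complex I lay under all genes, of which 61.5%, 56.5% and 61.8% were called. Estimates above 0, none called, were found for 11, 3 and 9 subunits, and 17 of 35 (48.6%) were called in no medium, beside 24.8% of all genes. Lower in every medium were 11 (31.4%, beside 22.1% of all genes): Ndufa5, Ndufa8, Ndufb2, Ndufb7, Ndufb8, Ndufb9, Ndufb10, Ndufc2, Ndufs4, Ndufs7 and Ndufv1. With total counts the numbers fell to 6, 10 and 7 lower. Of the 11, only Ndufa8, Ndufb10 and Ndufs4 were then lower in every medium. With this scaling 3 subunits were called higher in wtSOD1 medium (Ndufa2, Ndufa3 and Ndufs6). No other setting gave a higher complex I subunit. Without the replicate 3 libraries 7 were lower in NTg medium, and without replicate 5, 9 were lower in mSOD1 medium.

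Ndufb10 and Ndufa8, both accessory subunits, were among the 3 largest declines of complex I in each medium. Ndufb10, of the membrane arm, lay at 30.2, 38.8 and 39.7 CPM (lowest, median and highest of 6 libraries) in NTg medium on day 1 and at 24.2, 26.6 and 29.1 CPM on day 3. The days did not overlap, and the log2 difference was -0.45 ± 0.08 (estimate ± SE, adjusted p = 1.79e-05, lower in 6 of 6 same-numbered pairs). It was -0.42 ± 0.09 in mSOD1 and -0.38 ± 0.08 in wtSOD1 medium. Ndufa8, an accessory subunit with paired cysteine motifs, lay at 46.9, 55.4 and 59.0 CPM on day 1 and 38.9, 42.2 and 46.0 CPM on day 3 in NTg medium. Again the days were separate, with -0.36 ± 0.08 (adjusted p = 0.000162, lower in 6 of 6 pairs), and the difference was -0.47 ± 0.08 in each SOD1 medium. Ndufa5, which sits where the arms of the complex meet, fell by 0.33 ± 0.06 in NTg, 0.21 ± 0.06 in mSOD1 and 0.33 ± 0.06 in wtSOD1 medium on the log2 scale.

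Core subunits of complex I, those that carry the redox groups, were split. Ndufv1, which binds NADH and flavin, went from 60.3, 70.0 and 76.8 CPM to 60.4, 64.8 and 66.4 CPM in NTg medium (lowest, median and highest). These ranges overlapped at the low end, and the log2 difference was -0.13 ± 0.05 (adjusted p = 0.0293, lower in 5 of 6 pairs), a call lost under 7 of 14 other settings, with -0.28 ± 0.05 in mSOD1 and -0.23 ± 0.05 in wtSOD1 medium. Ndufs7, which holds the last iron-sulphur cluster before ubiquinone, fell by 0.23 ± 0.09, 0.33 ± 0.09 and 0.22 ± 0.09. Ndufs1, the largest iron-sulphur subunit, was called in no medium, with differences of 0.00 ± 0.04, -0.02 ± 0.04 and 0.02 ± 0.04 on the log2 scale.

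Complex II, succinate dehydrogenase, moved in both directions by small amounts. Sdha, the flavin subunit, lay at 177, 182 and 198.5 CPM on day 1 and 189, 197 and 202 CPM on day 3 in NTg medium. The days overlapped, and the difference was 0.10 ± 0.03 (adjusted p = 0.0158, higher in 5 of 6 pairs), with 0.10 ± 0.03 in mSOD1 and 0.09 ± 0.03 in wtSOD1 medium. Sdhd, a membrane anchor, rose by 0.22 ± 0.06 in NTg (adjusted p = 0.00215) and 0.24 ± 0.06 in wtSOD1 medium (0.000723), and was at 0.12 ± 0.06 in mSOD1 medium (0.079). Sdhc, the partner anchor, fell by 0.14 ± 0.05, 0.12 ± 0.05 and 0.13 ± 0.05 in NTg, mSOD1 and wtSOD1 medium. Its call was lost under 3, 6 and 4 of 14 other settings, total counts in each medium among them. Sdhb fell by 0.26 ± 0.07 in mSOD1 and 0.17 ± 0.07 in wtSOD1 medium and was at -0.15 ± 0.07 in NTg medium (adjusted p = 0.0731, or -0.19 and 0.0162 without the pair of libraries named above). The wtSOD1 call was lost under 7 of 14 settings.

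In complex III, Uqcrh separated the days in every library. In NTg medium it lay at 76.6, 83.3 and 90.0 CPM on day 1 and at 151, 155 and 166 CPM on day 3. In mSOD1 medium the values were 78.0, 89.3 and 104 CPM and then 135, 158 and 174 CPM, and in wtSOD1 medium 74.6, 82.9 and 96.8 CPM and then 142, 150.2 and 167 CPM. No day 3 library of any medium reached down to a day 1 library. The log2 differences were 0.92 ± 0.06 (1.89-fold, adjusted p = 1.07e-15), 0.82 ± 0.06 (1.77-fold, 3.66e-14) and 0.88 ± 0.06 (1.83-fold, 3.11e-15), each higher in 6 of 6 pairs. Other genes hold 7.1% of the 50-base words of Uqcrh.

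The other 7 subunits of complex III moved by at most 0.29 on the log2 scale. Uqcr10, a small subunit, rose by 0.21 ± 0.06, 0.13 ± 0.06 and 0.15 ± 0.06 in NTg, mSOD1 and wtSOD1 medium, and the calls in the SOD1 media were lost under 5 and 4 of 14 settings. Uqcrc2, a core subunit, rose by 0.13 ± 0.06 in NTg medium (adjusted p = 0.048, lost under 4 of 14 settings), while 24.8% of its 50-base words occur in other genes. Its partner Uqcrc1 fell by 0.28 ± 0.08 in mSOD1 medium, and was at -0.15 ± 0.08 in NTg and -0.13 ± 0.08 in wtSOD1 medium, neither called. Without the smallest and the largest library it was called in both, at -0.20 (adjusted p = 0.0071) and -0.20 (0.00711). Uqcrq, which contacts cytochrome b, fell by 0.29 ± 0.11 in mSOD1 medium (lost under 4 of 14 settings) and was not called in the others. Uqcrfs1, the Rieske iron-sulphur protein, was called in none (0.04 ± 0.05, -0.03 ± 0.05 and 0.02 ± 0.05). The summed level of complex III had medians of 595 CPM on day 1 and 675 CPM on day 3 in NTg medium, with no overlap, and Uqcrh alone differed by most of that amount. In mSOD1 medium the medians were 611 and 648 CPM, and in wtSOD1 medium 605 and 659 CPM, with overlap in each.

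Complex IV held the largest change of all members, in an isoform. Cox6b2, known from testis, lay at 3.46, 5.16 and 5.90 CPM in NTg medium on day 1 and 16.3, 18.4 and 19.6 CPM on day 3. The values in mSOD1 medium were 4.57, 4.95 and 7.29 CPM, then 18.3, 20.0 and 24.0 CPM, and in wtSOD1 medium 2.89, 4.90 and 7.40 CPM, then 18.2, 19.7 and 20.8 CPM. The days were separate in all 3 media. Log2 differences were 1.91 ± 0.13 (3.76-fold, adjusted p = 3.23e-15), 1.96 ± 0.13 (3.88-fold, 1.71e-15) and 1.89 ± 0.13 (3.72-fold, 7.21e-16), higher in 6 of 6 pairs each. On the deposited log2-like values the smallest of these was 1.46. Its counterpart Cox6b1, a subunit on the intermembrane face, went from 103, 109 and 122 CPM to 95.9, 101 and 108 CPM in NTg medium, a fall of 0.13 ± 0.06 (adjusted p = 0.0439). It fell by 0.15 ± 0.06 in wtSOD1 medium, and in mSOD1 medium the difference was -0.12 ± 0.06 (adjusted p = 0.0706, or 0.0324 with experiment as a block). The calls of Cox6b1 were lost under 8 of 14 settings in NTg and 5 in wtSOD1 medium. Cox6b2 stayed the minor isoform on day 3 in every library.

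Cox4i2 was near the limit of detection. It lay at 0.172, 0.542 and 0.752 CPM in NTg medium on day 1 and 0.719, 1.19 and 1.67 CPM on day 3. The ranges overlapped narrowly, and the difference was 1.21 ± 0.40 (adjusted p = 0.00886), with 1.57 ± 0.44 in mSOD1 medium (0.00258) and 0.59 ± 0.37 in wtSOD1 medium (0.161). The last was called without wtSOD1 replicate 4 of day 1 and NTg replicate 6 of day 1 (1.18, adjusted p = 0.011), and without all replicate 4 libraries (1.11, 0.0326). A difference between media in this change was not called. Cox4i1, the general isoform, was called in none (0.06 ± 0.08, -0.14 ± 0.08 and 0.06 ± 0.08).

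Among the called subunits of complex IV, Cox7c, a small membrane subunit, had the largest fall in NTg and wtSOD1 medium. In mSOD1 medium it was Cox5b. The lowest estimate of complex IV in wtSOD1 medium, -0.489, belonged to a subunit that was not called. Cox7c lay at 42.7, 48.9 and 54.1 CPM on day 1 and 37.1, 38.7 and 39.7 CPM on day 3 in NTg medium, without overlap. The fall was 0.36 ± 0.06 (adjusted p = 7.6e-06), 0.35 ± 0.06 (1.7e-05) and 0.41 ± 0.06 (5.59e-07) on the log2 scale in NTg, mSOD1 and wtSOD1 medium. Cox6a1 fell by 0.25 ± 0.06, 0.25 ± 0.06 and 0.30 ± 0.06, and Cox5a and Cox5b, which bind the matrix side, fell in all 3 media by 0.14 to 0.36. The call of Cox5a in mSOD1 medium was lost under 6 of 14 settings, with a difference of -0.07 (adjusted p = 0.243) without replicate 5, and that of Cox5b in NTg medium under 4. Cox6c rose by 0.17 ± 0.07, 0.18 ± 0.07 and 0.16 ± 0.07. Cox7a2 fell in mSOD1 (0.20 ± 0.07) and wtSOD1 medium (0.25 ± 0.07), and Cox8a and Ndufa4 were called in none. For Cox5a, Cox5b and Cox7c, 32.0%, 23.0% and 23.0% of 50-base words occur in other genes.

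**Figure D3:**
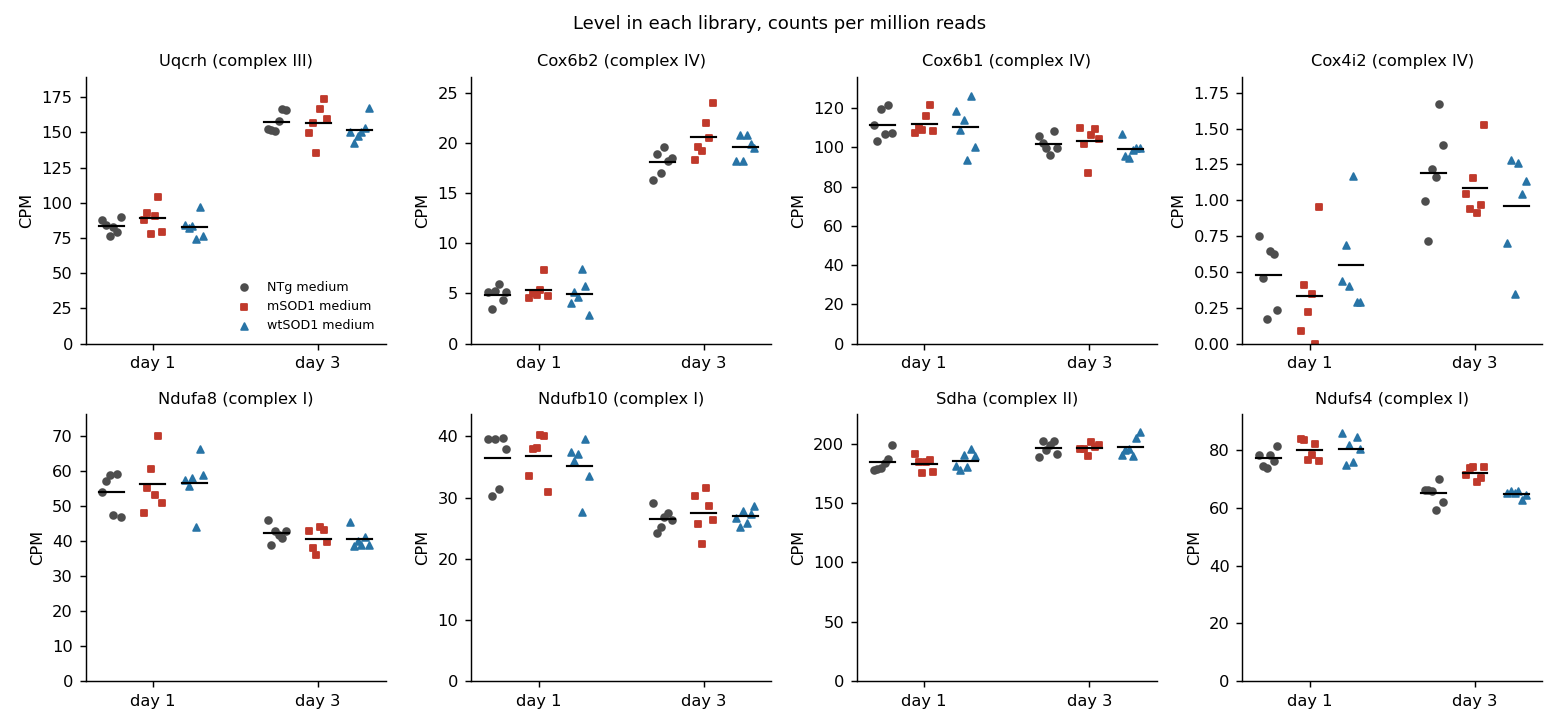
Level (CPM) of 8 subunits in each of the 36 libraries, by day and medium; each point is a library and black bars are group means. Uqcrh and Cox6b2 separate the days in every medium, Cox6b1 and Sdha differ little between days, and Ndufa8, Ndufb10 and Ndufs4 are lower on day 3.

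Complex V, ATP synthase, held few calls: 11 of its 15 subunits (73.3%) were called in no medium, beside 24.8% of all genes. Atp5a1 fell in all 3, from 690.1, 714 and 763 CPM to 650.5, 665.5 and 669 CPM in NTg medium (lowest, median and highest). The days did not overlap there, and the differences were -0.12 ± 0.05 (adjusted p = 0.032), -0.18 ± 0.05 in mSOD1 medium (0.00102) and -0.15 ± 0.05 in wtSOD1 medium (0.00614). The call in NTg medium was lost under 6 of 14 settings and that in wtSOD1 medium with total counts. Atp5b was at 0.00 ± 0.05, -0.11 ± 0.05 (adjusted p = 0.0717, or 0.0484 with experiment as a block) and -0.03 ± 0.05. Atp5g1 fell by 0.24 ± 0.08 in mSOD1 and 0.22 ± 0.08 in wtSOD1 medium. In NTg medium it was at -0.09 ± 0.08, not called, and at -0.17 (adjusted p = 0.0153) without the smallest and the largest library. The more abundant Atp5g3 was called in none (0.04 ± 0.05, 0.01 ± 0.05 and 0.05 ± 0.05). Atp5l and Atp5f1, of the membrane part and the stalk, rose in NTg medium by 0.25 ± 0.08 and 0.09 ± 0.03. In wtSOD1 medium Atp5l was at 0.16 ± 0.08 (adjusted p = 0.0643, or 0.0485 with experiment as a block), and no difference between media in these changes was called. Other genes hold 84.8% and 38.7% of their 50-base words, so these values are uncertain.

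The 4 members without a place as a structural subunit moved too. Atp5s, a coupling factor B-like protein, rose from 8.19, 9.84 and 12.1 CPM to 12.5, 13.3 and 14.3 CPM in NTg medium, with no overlap. The difference was 0.39 ± 0.09 (adjusted p = 0.000147), 0.44 ± 0.09 (5.05e-05) and 0.34 ± 0.08 (0.000565). Atp5sl, an assembly factor for complex I despite its symbol, fell by 0.34 ± 0.09, 0.39 ± 0.09 and 0.21 ± 0.09, the last a call lost under 8 of 14 settings. Cox7a2l, which joins complexes III and IV into supercomplexes, rose by 0.22 ± 0.06 in NTg and wtSOD1 medium and was at 0.11 ± 0.06 in mSOD1 medium (adjusted p = 0.104). Cox4nb, a subunit of a membrane protein complex of the endoplasmic reticulum, rose by 0.10 ± 0.04 in NTg and wtSOD1 medium, calls lost under 3 and 4 of 14 settings.

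Summed over subunits, the order of the complexes stayed V, I, IV, III and II in every group. The sum of complex I had a median of 1578 CPM on day 1 and 1501 CPM on day 3 in NTg medium, 1642 and 1477 CPM in mSOD1 medium, and 1609 and 1469 CPM in wtSOD1 medium. In each medium some libraries of the 2 days overlapped. Complex II had medians between 434 and 442 CPM in all 6 groups. Complex V went from 2480 to 2464 CPM, from 2500 to 2389 CPM and from 2491 to 2408 CPM, with overlap in each medium.

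**Figure D4:**
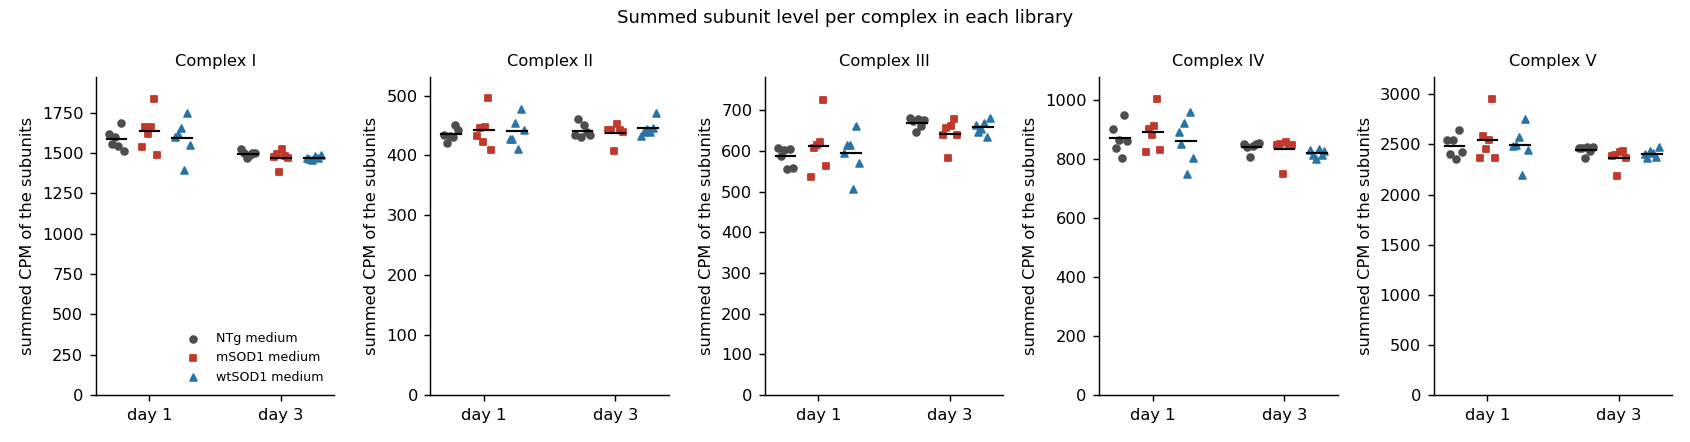
Summed level (CPM) of the subunits of each complex in the 36 libraries, by day and medium; each point is a library and black bars are group means. Complex III is higher on average on day 3 in each medium, with separate days in NTg medium only. Complex I is lower on average on day 3 in each medium. For complexes I and V the day 1 libraries spread more widely than those of day 3 in each medium.

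Did the astrocyte genotype matter? Within a day, almost no subunit was called between media, and few of all genes were. At such shares few calls or none are expected among 81 genes, so their lack does not show equal levels. On day 1 no member was called for mSOD1 against NTg medium (beside 0.421% of all genes), for wtSOD1 against NTg (0.0263%) or for mSOD1 against wtSOD1 (1.01%). On day 3 none was called for wtSOD1 against NTg (0.0987%), and 1 of 81 was called, as higher, for mSOD1 against NTg (2.94% of all genes, 2.24% higher) and for mSOD1 against wtSOD1 (3.37%, 2.48% higher). Unadjusted p-values under 0.05 were found for 1, 0 and 3 members on day 1 and for 3, 0 and 4 on day 3 in mSOD1 against NTg, wtSOD1 against NTg and mSOD1 against wtSOD1. DESeq2 gave the same counts of calls. Libraries did not overlap for 1 member in mSOD1 against wtSOD1 medium on day 1, Atp5sl, beside 0.829% of all genes, and its difference was not called (0.26, adjusted p = 0.216).

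The exception was Ndufs4, an accessory subunit that secures the NADH-binding part of complex I. On day 3 it lay at 59.5, 66.1 and 70.2 CPM in NTg medium, at 62.9, 65.3 and 66.1 CPM in wtSOD1 medium and at 69.1, 72.8 and 74.3 CPM in mSOD1 medium (lowest, median and highest). All mSOD1 libraries lay above all wtSOD1 libraries, while the NTg range overlapped theirs. A lack of overlap was found for 1 member in mSOD1 against wtSOD1 medium on day 3, beside 1.97% of all genes. The difference was 0.15 ± 0.04 from NTg (1.11-fold, adjusted p = 0.0355) and 0.15 ± 0.04 from wtSOD1 medium (1.11-fold, adjusted p = 0.0272), each higher in 6 of 6 pairs. These contrasts share the mSOD1 libraries. On day 1 the differences were 0.06 ± 0.04 and -0.01 ± 0.04, neither called.

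Ndufs4 fell from day 1 to day 3 in all media, by 0.24 ± 0.04 in NTg, 0.15 ± 0.04 in mSOD1 and 0.31 ± 0.04 in wtSOD1 medium, with separate days in each. A difference between media in this fall was not called by the test of time and medium. It was 0.09 ± 0.06 for mSOD1 against NTg (adjusted p = 0.464) and 0.16 ± 0.06 for mSOD1 against wtSOD1 (0.164). The call on day 3 was fragile, since it was lost against NTg under 8 and against wtSOD1 under 6 of 15 other settings, with the log2 difference between 0.13 and 0.16 in those against NTg. Neuronal markers moved with these contrasts: all 7 were above 0 in mSOD1 against NTg and against wtSOD1 medium on day 3, with medians of 0.23 and 0.30, and 2 were called in each. Of 8 motor neuron markers 7 were above 0 in each, with medians of 0.18 and 0.22, and 0 and 1 were called. All 8 genes of dividing cells were below 0, with medians of -0.27 and -0.29 and 2 called in each. Of 6 mesenchymal genes 6 and 4 were below 0, with 2 and 0 called. Their part in the level of Ndufs4 was not tested.

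No difference between media in the change over time was called for any member, and few were called among all genes. The lack of calls does not show equal changes. Tests of time and medium called none of 81 for mSOD1 against NTg (0.23% of all genes), wtSOD1 against NTg (0.0197%) and mSOD1 against wtSOD1 (0.592%), with 1, 0 and 2 members at an unadjusted p under 0.05, and DESeq2 called none. All 8 subunits of complex III had a negative estimate for mSOD1 against NTg medium, with a median of -0.12. For complexes I, II, IV and V the medians were -0.05, -0.04, 0.00 and -0.09. Without a call, these are given as values only.

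**Figure D5:**
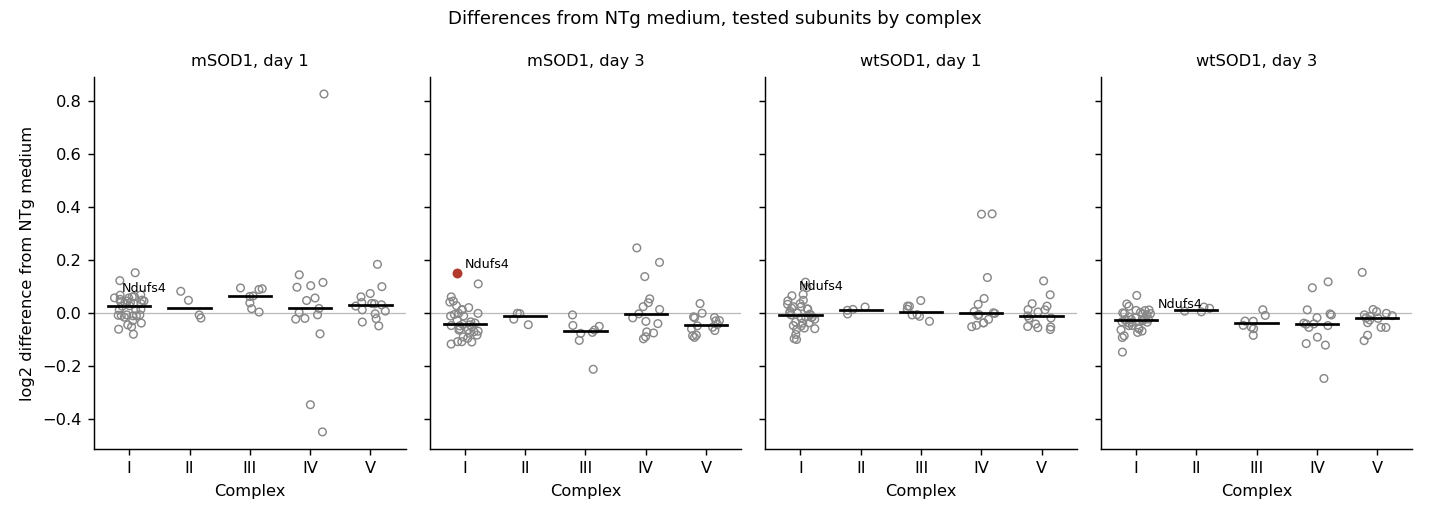
Log2 difference from NTg medium for each of the 77 tested structural subunits by complex, for mSOD1 and wtSOD1 medium on days 1 and 3; filled red points passed the test and black lines are medians. The single filled point is Ndufs4 in mSOD1 medium on day 3, and the widest points in complex IV are genes under 1 CPM.

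Subunits moved together from library to library. In mSOD1 medium on day 1, replicate 5 was the highest of 6 libraries for 56 of 81 members (69.1%, beside 22.4% of all genes tested). In wtSOD1 medium of that day replicate 5 was highest for 45 (55.6%, beside 20.4%) and replicate 4 lowest for 50 (61.7%, beside 26.9%). In NTg medium of day 1, replicate 5 was highest for 30 (37.0%, beside 14.1%). Experiment 5 was thus the high one for each medium on day 1. On day 3 it held 16, 14 and 6 of the highest values, and mSOD1 replicate 3 was the lowest for 44 (54.3%, beside 19.2%). The summed level of all 5 complexes was 7017 CPM in mSOD1 replicate 5 of day 1, against 5656 to 6197 CPM in the other 5 libraries, and 5302 CPM in mSOD1 replicate 3 of day 3, against 5757 to 5923 CPM. Within groups the coefficient of variation had a median of 4.75 to 8.49% over the subunits of a complex, and 9.47% over all genes.

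Shares called in the other lists are given beside those of all genes, 61.5%, 56.5% and 61.8% between days in NTg, mSOD1 and wtSOD1 medium. No gene of 5 further lists was called between media on either day (edgeR): 0 of 14 electron carriers and subunits missed by the symbol rule, 0 of 31 assembly factors, 0 of 17 genes of mitochondrial biogenesis, 0 of 21 of the citric acid cycle and 0 of 23 of import and carriers. Genes encoded in mitochondrial DNA were not analysed here. Between days in NTg medium, 3 of the 14 carriers and subunits were higher and 3 lower (42.9%), with 57.1% called in mSOD1 and 42.9% in wtSOD1 medium. Cyc1, the cytochrome c1 that Uqcrh adjoins, was at -0.09 ± 0.08 in NTg medium (adjusted p = 0.311), -0.27 ± 0.08 in mSOD1 (0.00418) and -0.16 ± 0.08 in wtSOD1 (0.0752), so it was called in mSOD1 medium and there in the opposite direction to Uqcrh. Cycs, cytochrome c itself, and Ndufab1, the acyl carrier subunit of complex I, were called in none. Coq7, an enzyme of ubiquinone synthesis, fell by 0.58 ± 0.08, 0.62 ± 0.08 and 0.68 ± 0.07, and Etfa, which feeds electrons from fatty acid oxidation, rose by 0.43 ± 0.08, 0.47 ± 0.08 and 0.57 ± 0.08.

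Of 31 assembly factors 3 were higher and 8 lower in NTg medium, 4 and 8 in mSOD1 and 7 and 9 in wtSOD1, or 35.5%, 38.7% and 51.6%, each under the share of all genes. Tmem70, needed to assemble ATP synthase, went from 22.4, 23.7 and 26.6 CPM to 34.1, 38.8 and 41.7 CPM in NTg medium, a rise of 0.69 ± 0.06 (adjusted p = 6.45e-13), with 0.47 ± 0.06 and 0.50 ± 0.06 in mSOD1 and wtSOD1 medium. Its days did not overlap, while most ATP synthase subunits were not called. Atpif1, the inhibitor protein of ATP synthase, fell by 0.37 ± 0.09, 0.45 ± 0.09 and 0.50 ± 0.09. Among 17 genes of biogenesis 4, 5 and 5 were higher and 2, 1 and 2 lower in NTg, mSOD1 and wtSOD1 medium (35.3%, 35.3% and 41.2%). Gabpa, the DNA-binding part of GABP, rose by 0.51 ± 0.06, 0.36 ± 0.06 and 0.56 ± 0.06. Gabpa overlaps exons of Atp5j on the opposite strand (16.3% of the exon length of Atp5j), and whether counting used strand is not stated in the labels. Ppargc1a, a coactivator of mitochondrial genes, rose by 0.42 ± 0.10, 0.57 ± 0.10 and 0.45 ± 0.10.

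In the citric acid cycle list 9, 6 and 7 of 21 genes were higher and 3, 5 and 3 lower (57.1%, 52.4% and 47.6%). Pdk2, a kinase that inhibits pyruvate dehydrogenase, rose by 0.65 ± 0.13, 0.63 ± 0.13 and 0.81 ± 0.13. Its rise was not the largest of that list, whose highest estimates were 2.43, 1.07 and 2.72 in NTg, mSOD1 and wtSOD1 medium. In the list of import and carriers 6, 5 and 4 of 23 were higher and 5, 8 and 7 lower (47.8%, 56.5% and 47.8%). Ucp2, an inner membrane carrier of the uncoupling protein family, had the largest change there, from 5.17, 6.70 and 8.72 CPM to 15.0, 18.6 and 24.4 CPM in NTg medium. The days were separate, and the rise was 1.53 ± 0.14 (adjusted p = 5.25e-12), with 1.02 ± 0.14 in mSOD1 and 1.36 ± 0.14 in wtSOD1 medium. The pathway genes named here were picked from fixed lists after their values were seen.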

How the data were processed

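RNA sequencing measured 36 libraries. Read counts per gene were deposited by the authors as whole numbers. Alignment with TopHat 1.3.3 to mm9, and DESeq, are listed in the submitters' processing notes. No source used here names the program that counted reads or says whether strand was used. The authors also deposited transformed values on a log2-like scale, headed VSE, used only as an alternative. Rows without a symbol (7, with 0.000516% of reads) were left out.

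The test was edgeR 4.0.16 under R 4.3.3 (quasi-likelihood F-test, robust fit, TMM, filterByExpr by group), with 36 libraries in 1 fit of 6 group means (30 residual degrees of freedom). Benjamini-Hochberg values ran over 15204 genes. The 12 comparisons were 6 between media, 3 between days and 3 of time and medium. The test was run on simulated data first. Differences are log2 estimates with SE. Levels are CPM on TMM-scaled totals.

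The members and all lists were chosen with earlier results of these data known. Named members were every called one, or where over 10 were called the 4 largest per complex and direction, with fixed isoforms and core subunits. Some results that this rule selects are not reported here. Other names, such as the 11 subunits lower in every medium, were added from the counts they belong to. Transcript lengths, overlaps and shared 50-base words came from GENCODE M21 (GRCm38), matched by gene identifier for 84 of 84 members, and promoters from RefSeq (GRCm38.p6).

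Each library carries an experiment number in its labels, read as a shared experiment that pairs libraries. Deviations of same-numbered libraries correlated at 0.133 on day 1 (11 of 18 pairs over 0.1), 0.24 on day 3 (16 of 18) and 0.0373 across days. Alternatives were DESeq2 1.42.0, RLE, upper-quartile and total-count scaling, no filter, limma 3.58.1 on the deposited log2 values, blocks for experiment, and left-out libraries. Experiment numbers were the only batch labels, and results without each are in the section on processing.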

Additional observations from a re-analysis of the deposited data

Results flagged for a closer look

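A library lay far from the other 5 of its group (Dixon's test at 95%) in 23 of 192 groups tested over the named members and summed levels. Chance alone picks out about 1 in 20 groups, and members that move together are not independent tests.

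In mSOD1 medium on day 1, replicate 5 was high for several members. Its summed level of complex V was 2953 CPM, with the other libraries at 2363 to 2581 CPM. Sdhb was 140.9 CPM there (others at most 104.3), Atp5a1 864.1 CPM (at most 743.9), Cox5a 110.5 CPM (at most 94.78), Cox8a 96.11 CPM (at most 81.98) and Cox6b2 7.294 CPM (at most 5.348). Cox7a1 was high in replicate 2 at 1.057 CPM (others at most 0.5813).

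In mSOD1 medium on day 3, replicate 3 was low: 406.9 CPM for complex II (others at least 439.9), 750.0 CPM for complex IV (at least 845.6), 2184 CPM for complex V (at least 2362), 87.11 CPM for Cox6b1 (at least 101.6) and 720.0 CPM for Atp5b (at least 795.9). In NTg medium on day 3, replicate 3 was low for complex IV (807.8 CPM, others at least 839.8), complex V (2369 CPM, at least 2439) and Atp5b (805.7 CPM, at least 845.8), and replicate 1 was high for Uqcrc1 (139.9 CPM, others at most 130.8). Complex II was high in wtSOD1 replicate 6 of day 3 (470.6 CPM, others at most 445.7).

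On day 1, NTg replicate 6, the smallest library, was low for Atp5g1 (23.57 CPM, others at least 37.45) and high for Ndufs1 (129.2 CPM, others at most 113.5), and NTg replicate 5 was high for Cox7a2l (83.97 CPM, at most 72.11). In wtSOD1 medium, replicate 4, the largest library, was low for Uqcrfs1 (68.59 CPM, at least 78.75), replicate 5 was high for Cox7a2l (83.36 CPM, at most 73.2) and replicate 6 low for Ndufa6 (35.44 CPM, at least 40.25). The cause was not tested for any of these.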

How the results depend on the processing

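No named difference reversed its direction once called under any of the 15 settings run, and 45 of the 75 named calls between days were kept under all 14 settings run for them (the block within each day was not run there), among them those of Uqcrh and Cox6b2. For mSOD1 against NTg medium on day 3, the 1 call became 0 with upper-quartile scaling, total counts or no filter, and 2 with the replicate block within each day, which added Cox4nb (lower by 0.11, adjusted p = 0.0402). Against wtSOD1 medium it became 0 with upper-quartile scaling and total counts. Leaving out 1 experiment at a time gave 0 to 1 call in both. Adjusted p for Ndufs4 ran from 0.0571 to 0.176 where it was lost against NTg. The cause was not tested. Between days, leaving out an experiment gave 20 to 34 members in NTg medium (20 without replicate 3), 25 to 33 in mSOD1 and 23 to 34 in wtSOD1 medium (23 without replicate 2), beside 34, 34 and 35. Dropping the smallest and the largest library gave 39, 39 and 36. With the replicate block the counts were 13 higher and 21 lower, 7 and 31, and 10 and 26. Beside the members named with it above, the block changed the calls of Ndufa7 and Ndufc1 (lower in mSOD1 medium, adjusted p = 0.0256 and 0.0406) and of Atp5l (higher in wtSOD1 medium, 0.0485), and no other. Depth limits the isoforms under 1 CPM. Calls on differences of about 0.1 to 0.29 on the log2 scale could depend on the scaling. With total counts, calls were lost at -0.29 for Uqcrq in mSOD1 medium and at -0.29 for Ndufb8 in wtSOD1 medium.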
